A study of Bos taurus with 6 samples.

Results

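The microRNAs miR-23, miR-24 and miR-27 are cut in cattle, as in other mammals, from a pair of clustered primary transcripts, and their mature forms were compared here in milk extracellular vesicles (EVs). The members were chosen by name: every row of the deposited counts called bta-miR-23a, bta-miR-23b, bta-miR-24, bta-miR-27a or bta-miR-27b, with or without an arm suffix. This gave 6 rows of 779 in all, of which 276 are known bovine miRNAs and the others are predicted sequences. The samples were milk of 6 Holstein cows, all female and in mid lactation. The 3 control cows ate a total mixed ration (TMR), and the 3 replacement cows ate a feed with some of its alfalfa hay exchanged for soybean hull and whole cotton seed. Over all cows the labels give 101 ± 10 days in milk, 574 ± 36 kg body weight and 32 ± 2 kg of milk per day, without saying what the ± stands for, and every cow was kept in a chamber at 20 °C and 40% humidity. EVs were collected with a commercial exosome isolation kit, and each cow gave 1 small RNA library.

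In mammals a single primary transcript carries the hairpins of a miR-23, a miR-27 and a miR-24, which Drosha cuts apart in the nucleus and Dicer trims to the mature strands. Each mature strand finds its mRNAs mainly through its seed, the bases near its 5′ end. In other cell systems miR-27 is known for restraining adipocyte formation through PPARG, miR-23 for repressing mitochondrial glutaminase, and miR-24 for slowing the cell cycle. The paralogous clusters each hold 1 copy of all 3 families, so they test whether hairpins transcribed together reach milk vesicles together.

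The RefSeq gene table of assembly ARS-UCD2.0 places MIR23A, MIR27A and MIR24-2 next to each other on chromosome 7, inside the span of the protein-coding gene LOC132345691. It places MIR23B, MIR27B and MIR24-1 next to each other on chromosome 8, inside AOPEP, the gene of aminopeptidase O, with MIR2475 as a further miRNA neighbour. All 6 member rows matched a precursor gene there, as did 271 of the 276 known miRNAs. Mature miR-24-3p is listed once and matches both MIR24-1 and MIR24-2, so its counts cannot be divided between the loci, whereas the a and b forms of miR-23 and miR-27 each belong to 1 locus. The table was used for names and neighbours only, because the submitters' processing notes name ARS-UCD1.2.

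The sequences below are those listed in the deposited table, written 5′ to 3′ with the seed, bases 2 to 8, in capitals. They show which members share a seed and how little separates the paralogs and the length forms. The miR-27 seed is shared by 2 rows:
bta-miR-27b: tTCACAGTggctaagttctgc
bta-miR-27a-3p: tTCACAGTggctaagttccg
The miR-23 seed is shared by 3 rows, of which the last is not a member by name:
bta-miR-23a: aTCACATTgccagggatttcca
bta-miR-23b-3p: aTCACATTgccagggattaccac
bta-miR-10174-3p: aTCACATTgccagggattaccacg
The remaining strands have a seed of their own among the members:
bta-miR-24-3p: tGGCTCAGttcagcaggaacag
bta-miR-23b-5p: gGGTTCCTggcatgctgattt

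Counted from 1 at the 5′ end, bta-miR-27a-3p and bta-miR-27b differ by C19T over their 20 shared positions, and bta-miR-27b is 1 base longer. In the same way bta-miR-23a and bta-miR-23b-3p differ by T19A over 22 positions. The row bta-miR-10174-3p holds the whole 23-nt sequence of bta-miR-23b-3p plus 1 base at the 3′ end, and bta-miR-10174-5p holds bta-miR-23b-5p plus 1 base at the 5′ end. No precursor gene of the RefSeq table matched the name bta-miR-10174, so its locus is not given here. How reads that fit more than 1 of these rows were assigned is not given in the sources used here, so the split between bta-miR-23b-3p and bta-miR-10174-3p is uncertain, and the values are given separately and summed. The nearest other listed sequence to bta-miR-24-3p was 9 edits away, so no such partner exists for it in the table.

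Levels are given as a share of each cow's summed counts of known miRNAs. Those totals were 70490, 161240 and 61156 counts in control cows 1 to 3 and 176919, 96254 and 69625 in replacement cows 1 to 3. A miRNA without a count could hold up to 0.0017% in the deepest library and 0.00491% in the shallowest, the limit that 3 counts set. These limits and the 95% Wilson intervals below cover counting error only and leave out the effect of PCR copies. How evenly the libraries captured different sequences was not tested, so ratios between miRNAs are ratios of counts. Replacement cow 3 stood apart from the other cows for several members, and results that rest on it are given with and without it.

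The group was led by bta-miR-27b, which alone held 68.9% ± 3.75 (SD, n = 6) of the members' counts. The 6 members together made up 3.97%, 4.13% and 2.76% of the known miRNA counts in control cows 1 to 3 and 3.32%, 3.66% and 3.28% in replacement cows 1 to 3. In the order of mean share they were bta-miR-27b, bta-miR-23a, bta-miR-24-3p, bta-miR-23b-3p, bta-miR-27a-3p and bta-miR-23b-5p. By counts, most of the miR-27 seed thus lay in the row of the AOPEP locus. By mean share the miR-23 row of chromosome 7 was above that of AOPEP.

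**Figure D1:**
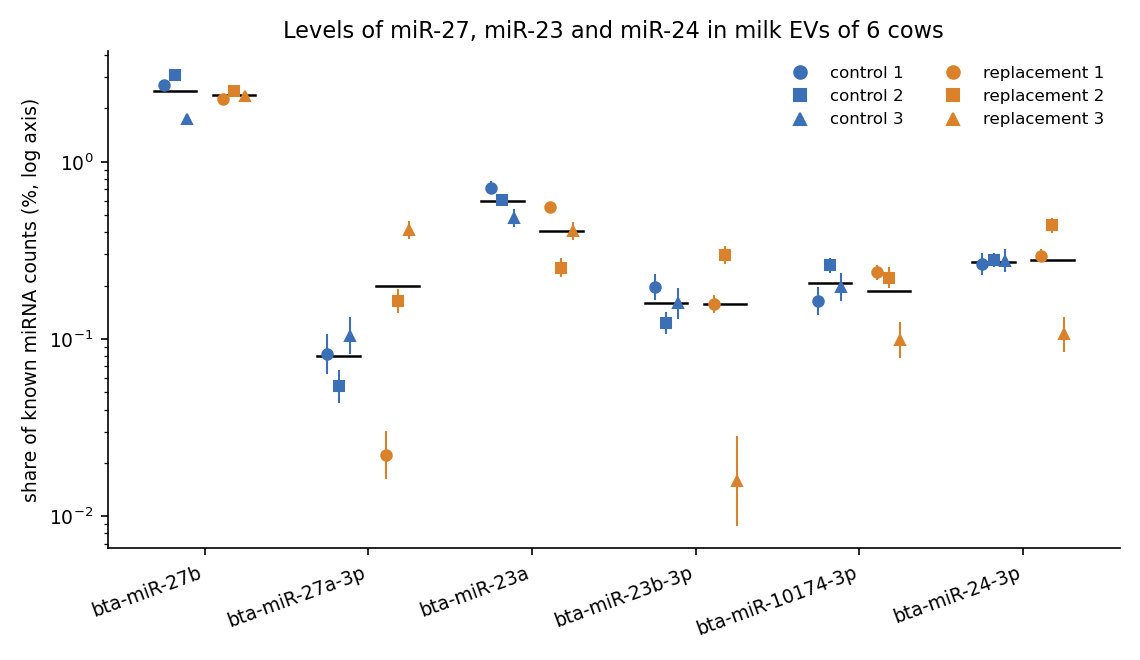
Share of known miRNA counts in percent, on a log axis, of each member in each cow, with the row bta-miR-10174-3p beside bta-miR-23b-3p. Points are cows, vertical bars are 95% Wilson intervals, black lines are diet means, and bta-miR-23b-5p is left out because it had no count in 4 cows. The points of bta-miR-27b span 1.74% to 3.07%, and those of bta-miR-23b-3p span 0.0158% to 0.299%, with replacement cow 3 lowest.

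For bta-miR-27b the share was 2.71%, 3.07% and 1.74% in control cows 1 to 3 and 2.26%, 2.51% and 2.34% in replacement cows 1 to 3. It ranked between 7 and 16 among known miRNAs in every cow, and the control range enclosed all replacement values. Its SD of log2 share over cows was 0.28, and only 7 known miRNAs with a mean of at least 10 counts per cow (4.86% of these) had a smaller one. The median SD among these was 0.96. This steadiness holds for the share of known counts: highest over lowest cow was 1.76 by share but 4.59 in the deposited RPM, because known miRNAs made up 0.492% to 1.32% of the reads. The mean share was 2.44% ± 0.449 (SD, n = 6), 5.02 times that of bta-miR-23a as a geometric mean over cows.

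Its paralog bta-miR-27a-3p was scarcer and, as a share of known counts, far more variable. The share was 0.0823%, 0.0540% and 0.105% in control cows 1 to 3 and 0.0220%, 0.164% and 0.414% in replacement cows 1 to 3. The replacement cows included both the lowest and the highest value, so the diets overlapped. Highest over lowest cow was 18.8 by share, against 1.76 for bta-miR-27b. In the deposited RPM it was 7.83 against 4.59, so the gap in spread was smaller on that scale. In percent of the counts with the miR-27 seed, bta-miR-27a-3p held 2.94%, 1.73% and 5.67% in controls 1 to 3, then 0.965%, 6.14% and 15.02% in replacement cows 1 to 3. The Wilson interval of the last was 13.5% to 16.7% and did not reach any other cow's value. The summed share of the seed stayed between 1.84% and 3.12%, with 2.75% in replacement cow 3.

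Among the miR-23 rows bta-miR-23a was the more abundant in 5 of 6 cows. Its share was 0.715%, 0.608% and 0.482% in control cows 1 to 3 and 0.556%, 0.252% and 0.406% in replacement cows 1 to 3. The control cows tended to be higher, but replacement cow 1 lay above control cow 3. For bta-miR-23b-3p the share was 0.196%, 0.123% and 0.159% in controls 1 to 3, then 0.157%, 0.299% and 0.0158% in replacement cows 1 to 3. The last value rests on 11 counts, with a Wilson interval of 0.00882% to 0.0283%, and lies far below every other cow. In replacement cow 2 the order was turned, with 243 counts of bta-miR-23a against 288 of bta-miR-23b-3p.

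The longer row changed this picture of miR-23. For bta-miR-10174-3p the share was 0.165%, 0.260% and 0.196% in control cows 1 to 3 and 0.237%, 0.222% and 0.0991% in replacement cows 1 to 3. The 23-nt row held 54.3%, 32.0% and 44.7% of the counts of both rows in controls 1 to 3, then 39.8%, 57.4% and 13.8% in replacement cows 1 to 3, so the division between the length forms differed widely from cow to cow. Summed, both rows gave 0.360%, 0.383% and 0.355% in the control cows, an SD of 0.0151 percentage points. The same sum was 0.395%, 0.522% and 0.115% in the replacement cows. With the longer row included, bta-miR-23a held 59.1% ± 14.96 (SD, n = 6) of the miR-23 seed, against 76.2% ± 16.7 without it.

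miR-24-3p, the strand that both loci can give, had almost the same share in each control cow, though not the same RPM. Its share was 0.265%, 0.279% and 0.276% there and 0.294%, 0.437% and 0.106% in replacement cows 1 to 3. The control SD was 0.00731 percentage points and the replacement SD 0.166, with replacement cow 2 above and replacement cow 3 below all control cows. The Wilson interval of the lowest, 0.0847% to 0.133%, was apart from the intervals of the other 5 cows. In the deposited RPM bta-miR-24-3p was at 14.3, 35.8 and 13.6 in control cows 1 to 3 and at 39.0, 34.7 and 5.87 in replacement cows 1 to 3, so the control cows were level by share only.

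The 5p strand of miR-23b was close to absent except in 1 cow. bta-miR-23b-5p had 57 counts in replacement cow 1, 1 in replacement cow 3 and 0 in the other 4 cows. bta-miR-10174-5p had 21 counts in replacement cow 1, 1 each in control cows 2 and 3, and 0 elsewhere. With the bta-miR-10174 rows counted to the miR-23b hairpin, the 5p rows held 10.1% of its counts in replacement cow 1 (Wilson interval 8.13% to 12.4%). They held at most 1.23% in the other cows. Counting those rows to this hairpin rests on sequence alone, because the locus of bta-miR-10174 is not given here. By member rows, replacement cow 1 had 57 counts of bta-miR-23b-5p and 278 of bta-miR-23b-3p. A predicted row with the seed of bta-miR-23b-5p but an otherwise different sequence had 5, 0 and 0 counts in controls 1 to 3, then 12, 0 and 25 in replacement cows 1 to 3.

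Neighbours in the order of mean share were compared cow by cow. They were picked by that order in these same cows, so it was described and not tested. bta-miR-27b exceeded bta-miR-23a in 6 of 6 cows, and bta-miR-24-3p exceeded bta-miR-23b-3p in 6 of 6 cows. That second order depends on the 23-nt row alone: with bta-miR-10174-3p added, bta-miR-24-3p was below miR-23b in 6 of 6 cows (0.790 times as a geometric mean). bta-miR-23a exceeded bta-miR-24-3p in 5 of 6 cows. bta-miR-23b-3p exceeded bta-miR-27a-3p in 5 of 6 cows, with a mean log2 ratio of 0.34 ± 2.56 (SD, n = 6) and of 1.34 ± 0.87 (SD, n = 5) without replacement cow 3. bta-miR-27a-3p exceeded bta-miR-23b-5p in 5 of 6 cows.

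Partners placed at 1 locus ranged from near equal to far apart by counts. Ratios with bta-miR-24-3p are not those of 1 transcript, because its counts pool both loci. At the locus in AOPEP, bta-miR-27b exceeded bta-miR-23b-3p 20.0 times as a geometric mean, with log2 ratios from 3.07 in replacement cow 2 to 7.15 in replacement cow 3. Without replacement cow 3 the geometric mean was 13.5. With the longer row added to bta-miR-23b-3p it was 7.40. bta-miR-27b exceeded bta-miR-24-3p 9.37 times, from 5.73 to 21.9, and 7.91 times without replacement cow 3. At the locus on chromosome 7 the order of the families was the opposite, with bta-miR-23a 5.05 times above bta-miR-27a-3p. That ratio ranged from 24.9 in replacement cow 1 to 0.983 in replacement cow 3. The other clustered pairs lay closer, with bta-miR-23a 1.87 times above bta-miR-24-3p, bta-miR-24-3p 2.71 times above bta-miR-27a-3p, and bta-miR-24-3p 2.13 times above bta-miR-23b-3p. Without replacement cow 3 these were 1.62, 4.33 and 1.71 times. Of the counts in rows that belong to 1 locus alone, 80.0% ± 4.65 (SD, n = 6) lay in AOPEP rows and the rest in chromosome 7 rows.

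Unequal partners are usual among the clustered miRNAs of these libraries. Outside the members, 34 pairs of known miRNAs with a mean of at least 10 counts per cow had precursor genes within 10 kb of each other, and the median fold between partners was 7.49. Of those 34 pairs, 24 had a smaller mean log2 ratio than bta-miR-27b over bta-miR-23b-3p, 20 a smaller one than bta-miR-27b over bta-miR-24-3p and 13 a smaller one than bta-miR-23a over bta-miR-27a-3p. For bta-miR-24-3p over bta-miR-27a-3p, bta-miR-24-3p over bta-miR-23b-3p and bta-miR-23a over bta-miR-24-3p the numbers were 9, 8 and 5. The members' folds thus lay within the range of other clusters. The outside pairs include some with the scarcer arm of a hairpin, reaching a log2 ratio of 11.4, and the members' pairs hold no such arm.

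**Figure D2:**
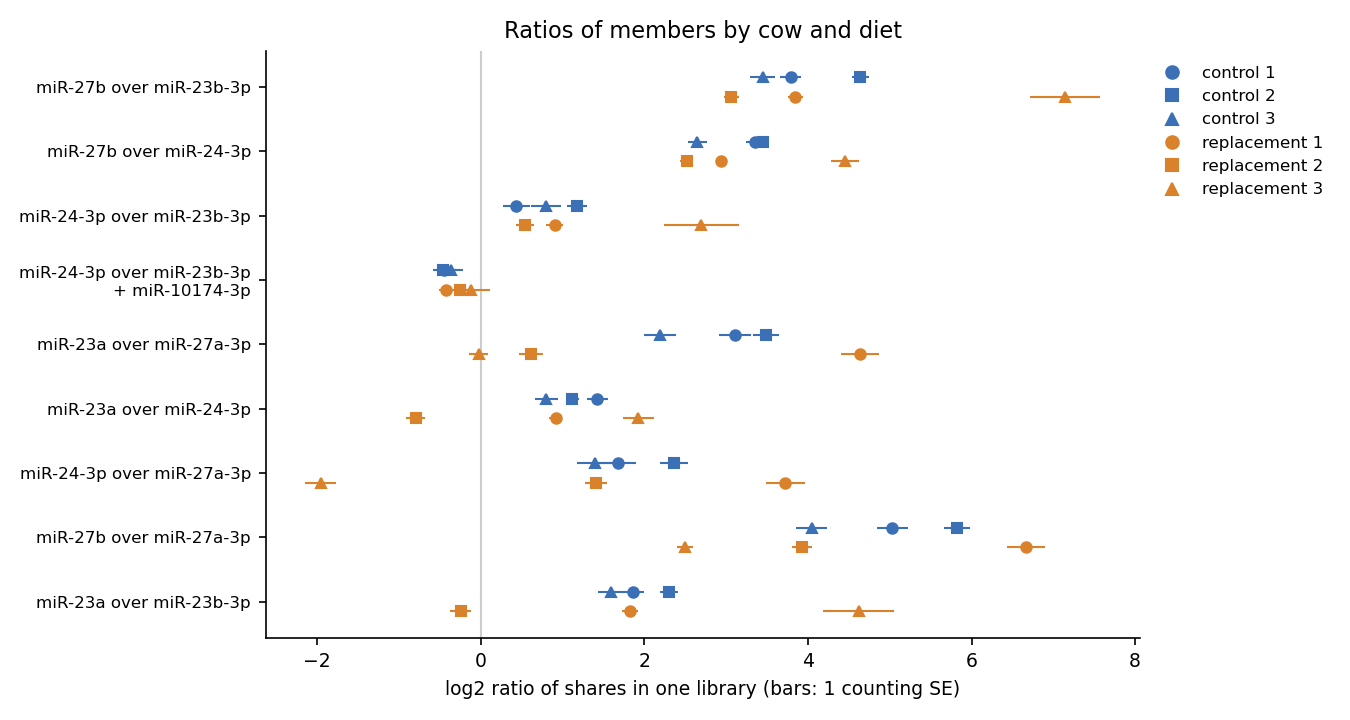
Log2 ratio of 2 members in the same library, for pairs from the locus in AOPEP, pairs from the locus on chromosome 7 and the paralogs, by cow and diet. Horizontal bars are 1 standard error from counting alone. The ratio of bta-miR-24-3p to the summed rows of bta-miR-23b-3p and bta-miR-10174-3p is the narrowest, between -0.46 and -0.11, and the diets overlap in every ratio.

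The closest co-variation in the group was between miR-24-3p and miR-23b once both length rows were counted. The ratio of bta-miR-24-3p to the sum of bta-miR-23b-3p and bta-miR-10174-3p was 0.737, 0.728 and 0.779 in control cows 1 to 3 and 0.747, 0.839 and 0.925 in replacement cows 1 to 3. By share of known counts both quantities were level in the control cows, highest in replacement cow 2 and lowest in replacement cow 3, while their ratio moved only 1.27-fold from lowest to highest. Its SD on the log2 scale was 0.13, and 4 of 10153 pairs of known miRNAs had a smaller one (0.0394%). The sum was formed after the values had been seen, so this is a description chosen among several. In the deposited RPM both were highest in replacement cow 1 and lowest in replacement cow 3, and the control cows were not level, at 19.4, 49.1 and 17.5 for the sum, while a ratio within a cow is the same on either scale.

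Over the 6 cows Pearson's r of log2 share was 0.989 for this pair (exact permutation p = 0.00417, adjusted p = 0.710 over all pairs of known miRNAs). Spearman's rho was 0.943 (exact permutation p = 0.0167). Without the 2 cows farthest from the median of bta-miR-24-3p, replacement cows 3 and 2, r was 0.801 over the remaining 4. Leaving out each cow in turn gave an r of 0.986 to 0.999, and subtracting the diet means gave 0.994. On the deposited TPM scale r was 0.996, and as shares of the counts of all rows 0.992. The adjusted value did not pass 0.05, and 0 of the 10296 pairs of known miRNAs passed it, while 646 had an unadjusted exact p under 0.05. Over 6 cows the exact permutation p cannot go below 0.00139, so no pair could pass unless many pairs lay at that floor together. The adjusted values therefore say little about any 1 pair.

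**Figure D3:**
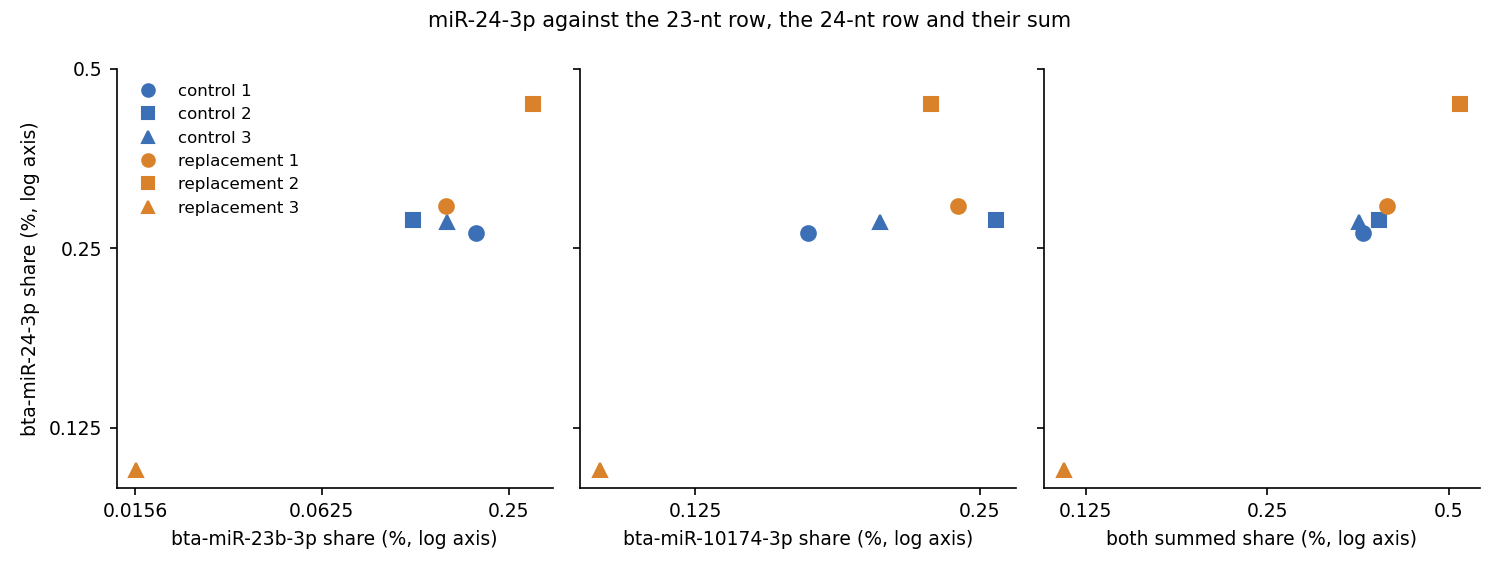
Share of bta-miR-24-3p against bta-miR-23b-3p (left), bta-miR-10174-3p (middle) and their sum (right), in percent of known miRNA counts on log axes, 1 point per cow. The 4 cows in the middle of the range scatter along either row taken singly and fall close together against the sum. Over those 4 cows r was -0.455, 0.738 and 0.801 from left to right. Against the sum r was 0.989 over all cows.

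With the 23-nt row alone the relation was of another kind. bta-miR-24-3p and bta-miR-23b-3p had r = 0.973 (exact permutation p = 0.025, adjusted p = 0.724) but a rho of 0.486 (exact permutation p = 0.356). Without replacement cows 3 and 2 r was -0.455, so the relation rested on those cows, although r was 0.814 without replacement cow 3 alone. Against bta-miR-10174-3p alone bta-miR-24-3p had r = 0.865 (exact permutation p = 0.0597) and a rho of 0.771 (exact permutation p = 0.103), with an adjusted p of 0.785 for r. Those values were 0.738 without replacement cows 3 and 2 and 0.255 without replacement cow 3 alone. The rows themselves had r = 0.807 with each other (exact permutation p = 0.121, adjusted p = 0.810) and a rho of 0.0286 (exact permutation p = 1). Without replacement cows 3 and 2 this r was -0.920, and without replacement cow 3 alone it was -0.344.

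bta-miR-27b, cut from the same transcript as miR-23b, showed no such closeness to it as shares of known counts, but the result depended on the scale. Its r was 0.0504 with bta-miR-23b-3p (exact permutation p = 0.899, adjusted p = 0.988) and 0.0843 with bta-miR-24-3p (exact permutation p = 0.874, adjusted p = 0.986). Spearman's rho was 0.0286 in both cases (exact permutation p = 1). Without control cows 3 and 2, the farthest for bta-miR-27b, r was 0.448 and 0.313, but without replacement cows 3 and 2, the farthest for its partners, it was -0.263 and -0.213. With both length rows summed, r between bta-miR-27b and miR-23b was 0.116 (exact permutation p = 0.771, adjusted p = 0.974), with a rho of 0.257 (exact permutation p = 0.658), and 0.326 without control cows 3 and 2. As shares of the counts of all rows that value was 0.632, and on the deposited TPM scale 0.753. On the TPM scale r was 0.528 with bta-miR-23b-3p and 0.761 with bta-miR-24-3p, and on the TMM scale 0.428 and 0.582. The median r over all known pairs was 0.253 on the TPM and 0.0431 on the TMM scale, and no pair passed an adjusted p of 0.05 on either. In replacement cow 3 bta-miR-27b stood at 2.34%, close to its mean, while the summed miR-23b rows were at 0.115%.

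At the locus on chromosome 7 no pair of partners had a positive r over the 6 cows as shares of known counts, with bta-miR-24-3p pooled over both loci. bta-miR-23a and bta-miR-27a-3p had r = -0.546 (exact permutation p = 0.25, adjusted p = 0.867) and a rho of -0.714 (exact permutation p = 0.136), and r was -0.871 without replacement cow 2 and control cow 1. Every leave-one-out value of this pair was negative, from -0.621 to -0.503, and r was -0.637 on the TPM scale and -0.829 on the TMM scale (exact permutation p = 0.172 and 0.0417, adjusted p = 0.697 and 0.700). bta-miR-24-3p and bta-miR-27a-3p had r = -0.537 (exact permutation p = 0.286, adjusted p = 0.881) and a rho of -0.371 (exact permutation p = 0.497). That value was -0.851 without replacement cows 3 and 2 but 0.496 without replacement cow 3 alone. bta-miR-23a and bta-miR-24-3p had r = -0.167 (exact permutation p = 0.732, adjusted p = 0.969) and a rho of -0.257 (exact permutation p = 0.658), and r turned to 0.848 without replacement cow 2 and control cow 1 but was -0.953 without replacement cow 3 alone. It also turned over all 6 cows on other scales, to 0.576 on the TPM and 0.312 on the TMM scale.

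The pairs of paralogs, which share a seed, had r near 0 as shares of known counts but not on every scale. The paralogs bta-miR-27a-3p and bta-miR-27b had r = -0.120 (exact permutation p = 0.833, adjusted p = 0.982) and a rho of -0.143 (exact permutation p = 0.803), with r = 0.162 without control cows 3 and 2. On the TPM and TMM scales that r was -0.218 and -0.561. The paralogs bta-miR-23a and bta-miR-23b-3p had r = -0.00802 (exact permutation p = 0.983, adjusted p = 0.998) and a rho of -0.0857 (exact permutation p = 0.919), with r = 0.788 without replacement cow 2 and control cow 1 but -0.750 without replacement cow 3 alone. For this pair the TPM and TMM scales gave 0.440 and 0.292. Of the 88 same-seed pairs outside the members, 13 (14.8%) had an unadjusted exact p under 0.05, and their median r was 0.0822. Correlations among the 5 members with a mean of at least 10 counts per cow covered 10 pairs, and bta-miR-23b-5p was too scarce to enter.

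**Figure D4:**
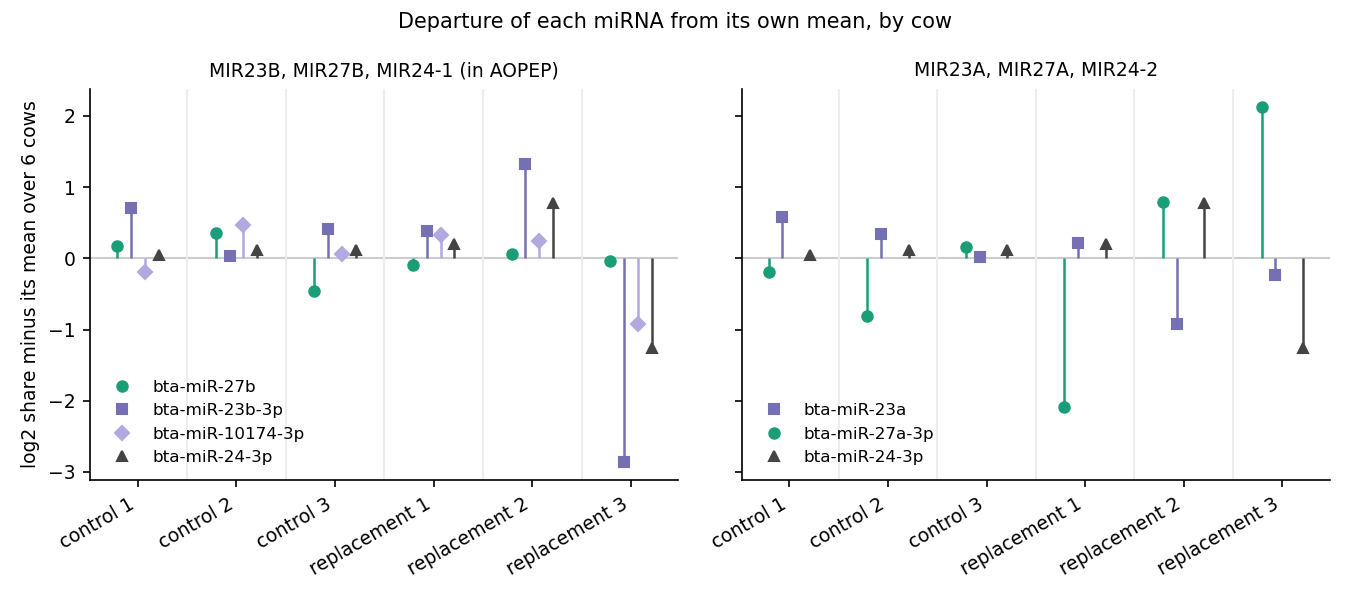
Log2 share of each miRNA minus its own mean over 6 cows, by cow, for the products of the locus in AOPEP with bta-miR-10174-3p (left) and of the locus on chromosome 7 (right). miR-24-3p is drawn in both because both loci carry a copy. In replacement cow 3 bta-miR-23b-3p, bta-miR-10174-3p and bta-miR-24-3p lie below 0, bta-miR-27b lies near 0 and bta-miR-27a-3p lies above.

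Other clustered pairs of the same libraries were set beside the members. The median r of the 34 clustered pairs outside the members was 0.400, with 26 above 0, against 0.00481 over all 10296 pairs of known miRNAs. The 6 clustered pairs among the members had a median of -0.0584, with 3 above 0. This gap depended on the scale: on the TPM scale the medians were 0.552 for the members and 0.453 for the outside pairs, and on the TMM scale 0.370 and 0.339. As shares of known counts an unadjusted exact p under 0.05 was found in 646 of all 10296 pairs (6.27%), in 7 of the 34 (20.6%) and in 1 of the 6 (16.7%), the pair of bta-miR-24-3p and bta-miR-23b-3p that rested on replacement cows 3 and 2. The highest outside pairs were bta-miR-125a with bta-miR-99b, bta-miR-144 with bta-miR-451, the erythroid cluster, and bta-miR-199a-5p with bta-miR-214. Their r was 0.954, 0.910 and 0.877 (exact permutation p = 0.00417, 0.00417 and 0.0208, adjusted p = 0.710, 0.710 and 0.715). Their rho was 0.943 in each case (exact permutation p = 0.0167), and without the 2 farthest cows r was 0.833, 0.849 and 0.363, so the third rested largely on those cows. The lowest were bta-let-7a-5p with bta-let-7d, bta-miR-22-3p with bta-miR-3600 and bta-miR-194 with bta-miR-215, with r = -0.869, -0.646 and -0.368 (exact permutation p = 0.0403, 0.171 and 0.553, adjusted p = 0.757, 0.836 and 0.945). Their rho was -0.829, -0.657 and -0.0286 (exact permutation p = 0.0583, 0.175 and 1). Without the 2 farthest cows r was -0.946, -0.628 and 0.571, so the last rested on those cows. No test of the difference between the members and the other clusters was made.

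**Figure D5:**
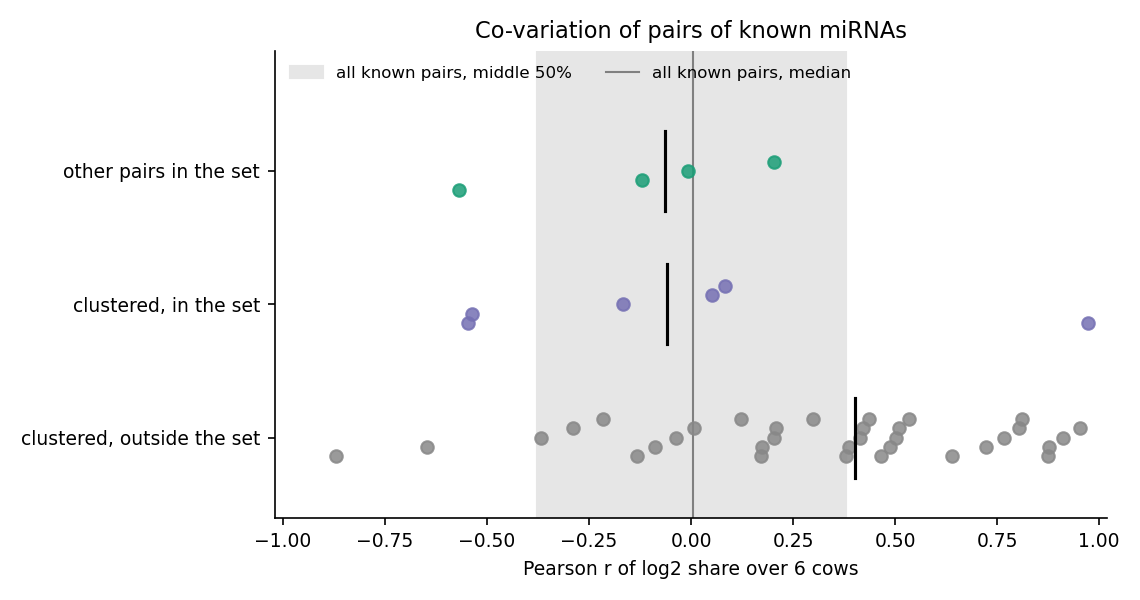
Pearson's r of log2 share over 6 cows for the 34 clustered pairs outside the members, the 6 clustered pairs among them and the other 4 pairs of members. Black ticks are medians, and the grey band and line are the middle 50% and the median of all 10296 known pairs. The medians are 0.400 for the outside pairs and -0.0584 for the clustered members, of which 1 pair lies at 0.973. On the TPM and TMM scales, not drawn, the members' median was the higher one.

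The known miRNAs whose pattern over the 6 cows was most like that of bta-miR-27b came from other loci. Among the known miRNAs with a mean of at least 10 counts per cow, bta-miR-128, bta-miR-26a and bta-miR-340 had the highest r, 0.893, 0.856 and 0.834 (exact permutation p = 0.025, 0.0569 and 0.0139, adjusted p = 0.724, 0.785 and 0.715). Their rho was 0.886, 0.543 and 0.771 (exact permutation p = 0.0333, 0.297 and 0.103). Without control cows 3 and 2 r was 0.821, -0.813 and 0.828, so the relation with bta-miR-26a, which held 18.1% of the known counts, rested on those cows. The lowest r belonged to bta-miR-199a-3p, bta-miR-106b and bta-miR-93, at -0.886, -0.878 and -0.736 (exact permutation p = 0.0125, 0.00972 and 0.0903, adjusted p = 0.715, 0.710 and 0.809). Their rho was -0.886, -0.886 and -0.714 (exact permutation p = 0.0333, 0.0333 and 0.136), and r was -0.676, -0.776 and -0.375 without control cows 3 and 2.

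bta-miR-23a followed bta-miR-148a, a miRNA that lactating mammary epithelium makes in large amounts. bta-miR-148a had shares of 0.851%, 0.755% and 0.657% in control cows 1 to 3 and 0.751%, 0.351% and 0.468% in replacement cows 1 to 3, the same rank order as bta-miR-23a. The r was 0.978 (exact permutation p = 0.00139, the smallest that 720 pairings can give, adjusted p = 0.710) and the rho 1 (exact permutation p = 0.00278). It was 0.950 without replacement cow 2 and control cow 1, and 0.945 to 0.993 with each cow left out in turn. This pair was named after the values had been seen, as the highest r of bta-miR-23a with any other known miRNA. Other miRNAs of the mammary epithelium did not share this order of cows. bta-miR-200c and bta-miR-141 were highest in control cow 3, though both were near the counting limit in several other cows. For bta-miR-200a and bta-miR-205 replacement cow 3 came next after control cow 1.

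The diet comparison asked whether replacing part of the hay altered these miRNAs. In edgeR (quasi-likelihood F test, Benjamini-Hochberg adjusted), 0 of the 5 members that passed the filter on low counts were called at an adjusted p under 0.05, against 0 of the 227 rows tested (0%). At an unadjusted p under 0.05 edgeR had 8 of the 227 rows and 0 of the members. DESeq2 called 7 of 390 rows (1.79%) and 0 members, and had 41 rows and 0 members at an unadjusted p under 0.05. bta-miR-23b-5p did not pass edgeR's filter.

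The estimates were uncertain. On the log2 scale edgeR put bta-miR-27b at -0.08 (SE 0.42), bta-miR-23a at -0.46 (SE 0.53), bta-miR-24-3p at 0.13 (SE 0.64) and bta-miR-23b-3p at 0.14 (SE 0.93), replacement minus control, all with an adjusted p of 0.986. The sign for bta-miR-27b, bta-miR-24-3p and bta-miR-23b-3p turned under some other scaling, replicate block or left-out cow. For bta-miR-23a it turned only with library size alone, a scaling that raised the median of all rows. With each cow left out in turn bta-miR-23a stayed negative, from -1.11 to -0.20. bta-miR-27a-3p had the largest estimate, 2.20 times higher on the replacement diet (log2 SE 0.84, adjusted p = 0.986), and without replacement cow 3 its log2 estimate was 0.26. Without replacement cow 1 it was the only member with an unadjusted p under 0.05 under any alternative, at an adjusted p of 0.314, in a fit where 29 rows had an unadjusted p under 0.05. The median over the members tested was 0.13, over the known miRNAs tested 0.01 and over all rows tested 0.03. With library size alone as the scaling, the median of all rows was 0.63, with bta-miR-27b at 0.49 and bta-miR-23a at 0.09 below it, and bta-miR-24-3p at 0.76, bta-miR-23b-3p at 0.78 and bta-miR-27a-3p at 1.81 above it.

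Ratios inside a library do not depend on the total, and none of the 9 computed separated the diets. The exact permutation p of the diet difference ranged from 0.4 to 0.9, where 3 cows against 3 cannot go below 0.1. With bta-miR-10174-3p added to bta-miR-23b-3p, 4 further ratios overlapped between the diets too, and the lowest p was 0.2, for bta-miR-24-3p over the sum. The largest difference among the 9 was in bta-miR-23a over bta-miR-27a-3p, with a log2 ratio of 2.93 ± 0.66 (SD, n = 3) in the control and 1.74 ± 2.53 in the replacement cows (exact p = 0.4). With each cow left out in turn this difference stayed negative, from -2.63 to -0.30. In bta-miR-27b over bta-miR-27a-3p the log2 ratio was 4.97 ± 0.89 against 4.36 ± 2.12 (exact p = 0.7). The replacement SD exceeded the control SD in all 9 ratios, and in 6 of 9 without replacement cow 3. For bta-miR-27b alone the spread was the other way round, with share SDs of 0.688 in the control and 0.126 percentage points in the replacement cows. Differences in spread between the diets were not tested.

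Markers of the cell types that could shed vesicles into milk were read beside these values. In a whole vesicle fraction, fewer vesicles from a cell type and less of a miRNA per vesicle cannot be told apart. All 7 miRNAs of the mammary epithelium list were in the table, summing to 1.08%, 0.780% and 0.749% in control cows 1 to 3 and 0.821%, 0.351% and 0.580% in replacement cows 1 to 3, mostly bta-miR-148a at a mean of 0.639%. The other defining markers of that list, bta-miR-200c and bta-miR-141, were at 0 in replacement cow 2. They were highest in control cow 3, at 0.0278% and 0.0180%, so these were scarce beside bta-miR-148a. In control cow 2, with bta-miR-148a at 0.755%, both were at 0.00124%, below the 0.00186% that 3 counts set there. bta-miR-200a and bta-miR-205 were also at 0 in replacement cow 2. They were at 0.131% and 0.0681% in control cow 1 and at 0.0546% and 0.0517% in replacement cow 3. Outside replacement cow 2 bta-miR-200a and bta-miR-205 thus did not follow bta-miR-148a. For bta-miR-200c and bta-miR-141, near the counting limit in several cows, the order of cows is uncertain. Replacement cow 2 was also the lowest cow for bta-miR-23a and the highest for bta-miR-24-3p.

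Blood cell lists held more counts. Of the red blood cell list 7 of 8 were in the table, summing to 10.9%, 7.21% and 20.1% in control cows 1 to 3 and 6.52%, 9.51% and 10.9% in replacement cows 1 to 3, led by bta-miR-486 at a mean of 6.83%. Control cow 3, which had the highest sum, had the lowest share of bta-miR-27b. The leukocyte list, 8 of 8 in the table and led by bta-miR-150 at a mean of 1.51%, summed to 2.29%, 3.17% and 3.18% in controls 1 to 3, then 2.00%, 2.26% and 3.15% in replacement cows 1 to 3. Of the vascular and stromal list 7 of 8 were in the table, led by bta-miR-126-3p at a mean of 0.530%, and summed to 1.56%, 1.08% and 1.91% in controls 1 to 3, then 0.842%, 1.49% and 1.56% in replacement cows 1 to 3. The liver and muscle miRNAs, 4 of 4 in the table and led by bta-miR-122 at a mean of 0.373%, summed to 0.487%, 0.110% and 0.414% in controls 1 to 3, then 0.228%, 0.266% and 0.804% in replacement cows 1 to 3. Replacement cow 3 was highest in that last list, with bta-miR-122 at 0.760%, and in bta-miR-27a-3p. No defining marker of any list was at 0 in all cows, and the part of any of these cell types in the members' values was not tested.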

How the data were processed

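Small RNA of milk EVs was sequenced from 6 cows, 3 per diet, taken from the sample titles. According to the methods and the submitters' processing notes, the authors trimmed reads with Cutadapt 1.14 (15 to 41 nt kept), aligned them with Bowtie to the cow genome, and named known miRNAs from miRBase. The authors deposited whole-number counts per mature miRNA without normalization. The deposited RPM values, headed TPM, are those counts scaled to 1 read total per cow. The deposited table of the authors' diet comparison, with fold changes and p-values, was not used. How strand and multi-mapping reads were handled, and by which counter, is not given in the sources used here.

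Shares of known miRNA counts were computed per cow, with 0.5 counts added before log2. Diets were compared with edgeR 4.0.16 (TMM, quasi-likelihood test, all rows, Benjamini-Hochberg) in R 4.3.3, with standard errors taken from the test statistic and DESeq2 1.42.0 as an alternative. The other tests were two-sided exact permutation tests in Python 3.11.15 (numpy 2.4.6, scipy 1.17.1), with pair p-values adjusted over all pairs of known miRNAs with a mean of at least 10 counts per cow. The pair correlations and the edgeR and DESeq2 fits were first run on simulated data with known answers. Alternatives were other totals, scalings, filters, pseudocounts, a replicate block and each cow left out in turn. Adding bta-miR-10174-3p to bta-miR-23b-3p was chosen after seeing the data.

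Named miRNAs are the members, rows that share a member's seed or hold its sequence, the 3 most and 3 least alike to bta-miR-27b, the 3 highest and 3 lowest clustered pairs outside the members, and list markers that moved with a result. The members and lists were chosen with earlier results of these data known. Each cow was 1 replicate by design.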

Additional observations from a re-analysis of the deposited data

Results flagged for a closer look

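Of 32 sets of 6 cow values examined, 8 held a cow far from the other 5. Chance would flag about 1 in 20, or 1.6, if the values were normally distributed. Shares need not be, and the summed miR-23b rows were formed after the values were seen, so this rate is only a guide. Replacement cow 3 accounted for 6 of them. Its share of bta-miR-24-3p was 0.106%, its share of bta-miR-23b-3p 0.0158%, and its summed share of bta-miR-23b-3p and bta-miR-10174-3p 0.115%, each the lowest by a wide gap. In the same cow the log2 ratio of bta-miR-24-3p over bta-miR-23b-3p was 2.70, that of bta-miR-27b over the summed rows 4.34, and bta-miR-27a-3p held 15.02% of the miR-27 seed, each the highest by a wide gap. These values share counts and are not independent of one another. Over all known miRNAs with a mean of at least 10 counts per cow, replacement cow 3 was the lowest cow for 17 (11.8%) and the highest for 33 (22.9%), and control cow 3 was the highest for 31.

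In replacement cow 1 the 5p rows held 10.1% of the counts of the miR-23b hairpin, with the bta-miR-10174 rows counted to it. In the other 5 cows they held at most 1.23%. In control cow 3 the red blood cell list summed to 20.1% of known miRNA counts, against at most 10.9% in the others.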

How the results depend on the processing

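The limits come first from size and depth: 3 cows per diet, 61156 to 176919 known counts per cow, and 11 counts behind the lowest share of bta-miR-23b-3p. Levels keep their order of magnitude only within the total used. bta-miR-27b was at 0.697% with the counts of all rows as the total and at 0.0209% of reads on the deposited TPM scale.

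No member was called by diet under any of the 12 alternatives. With 3 cows per diet, the absence of calls does not show that the diets were alike. Rows called numbered 7 by DESeq2, 15 without the filter on low counts, and 0 to 1 with each cow left out in turn. The log2 diet estimate of bta-miR-27b became 0.0247 by DESeq2, 0.0614 with RLE factors and 0.49 with library size alone, and that of bta-miR-23a 0.0851 with library size alone. RLE factors moved the median of all rows to 0.17 and library size alone to 0.63. Leaving out each cow in turn gave -0.42 to 0.36 for bta-miR-27b, -0.21 to 0.56 for bta-miR-24-3p and -0.48 to 0.67 for bta-miR-23b-3p. In the same fits bta-miR-23a stayed negative, from -1.11 to -0.20, and bta-miR-27a-3p positive, from 0.26 to 1.63.

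Cow numbers were checked as a replicate block. Deviations of same-numbered cows correlated at -0.0355, -0.120 and 0.172, and the highest value was 0.197, for control cow 1 with replacement cow 2. Values this weak cannot decide whether the numbers pair cows, and the labels do not say. With the block edgeR called 0 rows, and the estimates of bta-miR-24-3p and bta-miR-23b-3p became -0.14 and -0.54.

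The diet difference of bta-miR-23a over bta-miR-27a-3p kept its sign with each cow left out in turn, from -2.63 without replacement cow 1 (exact p = 0.1) to -0.301. The other 8 changed sign, with ranges of -0.50 to 1.54 for bta-miR-27b over bta-miR-23b-3p, -0.42 to 0.54 for bta-miR-27b over bta-miR-24-3p, -0.0798 to 0.99 for bta-miR-24-3p over bta-miR-23b-3p, -1.05 to 0.31 for bta-miR-23a over bta-miR-24-3p, -2.08 to 0.75 for bta-miR-24-3p over bta-miR-27a-3p, -1.75 to 0.33 for bta-miR-27b over bta-miR-27a-3p, -1.13 to 1.30 for bta-miR-23a over bta-miR-23b-3p and -1.22 to 0.30 for bta-miR-23b-3p over bta-miR-10174-3p. With bta-miR-10174-3p added to bta-miR-23b-3p, the difference of bta-miR-23a over it became -0.28.

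Correlations over so few cows moved widely. With each cow left out in turn r ranged from -0.0445 to 0.288 for bta-miR-27b with bta-miR-23b-3p, -0.332 to 0.0691 for bta-miR-27b with bta-miR-27a-3p, -0.953 to 0.718 for bta-miR-23a with bta-miR-24-3p, -0.750 to 0.778 for bta-miR-23a with bta-miR-23b-3p, -0.869 to 0.496 for bta-miR-24-3p with bta-miR-27a-3p and -0.797 to 0.645 for bta-miR-23b-3p with bta-miR-27a-3p, whose rho was 0.0286. For bta-miR-23a, r with bta-miR-24-3p became 0.576 on the log2 TPM scale and 0.312 on the TMM scale, and r with bta-miR-23b-3p 0.440 and 0.292. The median r of clustered pairs outside the members was 0.296 to 0.499. Where a value changed sign, the cause was not tested. Counted as results under each alternative, 112 pair correlations kept their sign and 12 changed it. The counts were 64 and 11 for ratio differences and 48 and 12 for diet estimates. These counts describe the sign only. A ratio difference could not pass the threshold, because its exact p cannot go below 0.1 with 3 cows against 3. No pair of known miRNAs passed the threshold after adjustment under any alternative. That outcome was nearly fixed by the floor of the exact permutation p, 0.00139 over 6 cows and higher with a cow left out. No member was called by diet.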
